A study of Mus musculus with 2 samples.

Results

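The cells described here are the Flt3+ lymphoid-primed progenitors of mouse bone marrow, chosen by their own transcript counts in a CITE-seq experiment, in which each droplet gives both the RNA of a cell and the antibody tags bound to its surface. A cell was a member if it held at least 2 unique molecular identifiers (UMIs, each standing for 1 captured transcript) of Flt3, at least 3 of Dntt and Satb1 together, no Cd79a, at most 1 of Siglech and at most 4 of F13a1 and Ly86 together. In addition, the 6 neutrophil granule transcripts Ltf, Camp, Ngp, S100a8, S100a9 and Lcn2 had to make up less than 1% of its gene UMIs. This rule found 149 members among 7098 cells in the control library and 14 members among 6970 cells in the library labelled Utx-deleted, 163 of 14068 cells in all. Because measured values of these 13 genes selected the members, those values and the number of members are a description and were not tested.

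The study asked how MLL3 and MLL4, the histone methyltransferases of COMPASS-type complexes, act in blood stem cells and in the priming towards B cells, and this experiment compared control cells with cells lacking Utx. Utx (Kdm6a) is a histone H3K27 demethylase carried by the MLL3 and MLL4 complexes. By their labels both libraries held CD45.2+ Kit+ cells of the bone marrow, collected 10 weeks after transplantation, and both were made with 10x Genomics 3′ chemistry (version 3.1). The labels set the libraries apart only as control and as Utx deleted. The Cre line or promoter, the strain, the age of the animals and the number of donors or recipients are not given in the sources used here. With 1 library per group there is no replicate check and no test between the groups, and every difference is a difference between these libraries. Each library also carried 2 hashtag antibodies, which split its cells into a pair of populations. The labels do not say what the hashtags mark, so they are used only to show the spread inside a library. Intervals are exact 95% intervals and cover counting error only. Checked against the Kit+ label, most kept cells were rich in neutrophil transcripts and lower in Kit tag than the members: 4644 of 7098 control and 5036 of 6970 Utx-deleted cells held at least 20% neutrophil transcripts. Their CD117 (Kit) tag had medians of 19 and 11 UMIs, against 199 and 222 in members, and their Gr1 tag, a granulocyte mark, medians of 868 and 1361.5.

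Lymphoid-primed multipotent progenitors are early cells that have largely lost the capacity to make platelets and red cells and retain lymphoid and myeloid output. Flt3 is the receptor tyrosine kinase by which they are recognised and through which Flt3 ligand supports early lymphoid and dendritic development. Dntt encodes TdT, the polymerase that adds untemplated bases at V(D)J joints and is switched on early in lymphoid progenitors. Satb1 is a chromatin organiser that promotes the lymphoid potential of stem cells and progenitors.

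Promoter sequence is shown for 3 genes on which the results turn: Flt3 and Dntt, which define the cells, and Il1r1, which leads the genes found across many control members and at 0 UMIs in the Utx-deleted members. Each line gives the 150 bases upstream of the annotated start, 5′ to 3′ on the strand of the gene, from RefSeq (GRCm38.p6). Capitals mark a match to the E-box CANNTG, the letters bound by basic helix-loop-helix factors such as those encoded by Tcf3 and Tcf12.
Dntt (chr19:41029125-41029274, plus strand): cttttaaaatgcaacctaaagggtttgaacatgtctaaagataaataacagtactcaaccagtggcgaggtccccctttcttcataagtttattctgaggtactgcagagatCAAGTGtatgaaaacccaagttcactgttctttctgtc
Flt3 (chr5:147400490-147400639, minus strand): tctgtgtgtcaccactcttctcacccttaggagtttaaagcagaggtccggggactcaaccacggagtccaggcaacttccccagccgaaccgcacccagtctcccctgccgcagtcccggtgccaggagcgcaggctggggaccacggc
Il1r1 (chr1:40224930-40225079, plus strand): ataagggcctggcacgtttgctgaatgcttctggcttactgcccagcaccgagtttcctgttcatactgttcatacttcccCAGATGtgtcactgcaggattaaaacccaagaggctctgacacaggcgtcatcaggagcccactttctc
CANNTG reads the same on both strands and matched 1 time in the Dntt window, 1 time in the Il1r1 window and 0 times in the Flt3 window, while 47.7% of 32851 promoter windows of this length hold it. TGGGAA, a core of Ikaros sites searched on both strands, was in none of these 3 windows (0 matches each), against 13.1% of all windows. The motifs do not overlap. GC content was 38.7% for Dntt, 51.3% for Il1r1 and 64% for Flt3. A match is a description of the letters, not a site of binding.

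Members were 2.10% of kept control cells (1.78 to 2.46%) and 0.201% of kept Utx-deleted cells (0.110 to 0.337%), 10.5-fold fewer (6.04 to 19.6). The direction was the same in each hashtag population. In hashtag 1, 64 of 3374 control cells (1.90%) and 8 of 3256 Utx-deleted cells (0.246%) were members, a 7.72-fold difference. In hashtag 2 they were 85 of 3674 (2.31%) and 6 of 3674 (0.163%), a 14.2-fold difference. Within a library the hashtag populations therefore lay far closer to each other than the libraries did. Cells low in neutrophil transcripts made up like shares of both libraries, 24.1% of control and 22.4% of Utx-deleted cells. Among these low-neutrophil cells members were 8.72% of 1708 and 0.899% of 1558. Without the members that also held at least 2 UMIs of Hlf and Mecom, 18 and 4 cells remained, a 4.42-fold difference.

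Among low-neutrophil cells the libraries first parted at the Flt3 step, with the limits applied in the order given here. Another order would move that step. Taken alone, at least 1 Dntt UMI was found in 169 control (9.89%) and 18 Utx-deleted (1.16%) low-neutrophil cells. At least 3 Satb1 UMIs were found in 435 (25.5%) and 272 (17.5%). Of the low-neutrophil cells, 353 (20.7%) in the control and 73 (4.69%) in the Utx-deleted library had at least 2 Flt3 UMIs. The Dntt and Satb1 limit left 216 and 36 of them, the Cd79a limit, which removes B-lineage cells, left 211 and 33, and the Siglech limit, which removes plasmacytoid dendritic cells, left 203 and 33. The monocyte limit on F13a1 and Ly86 then took away 54 control and 19 Utx-deleted cells, so it removed the larger share in the Utx-deleted library. Near the limits, 31 control and 6 Utx-deleted cells failed on Flt3 alone with 1 UMI, and 28 and 4 members had exactly 2. For Dntt and Satb1 together, 23 and 5 cells failed alone with 2 UMIs, and 24 and 2 members had exactly 3. No cell otherwise meeting the rule lay between 0.5% and 2% neutrophil transcripts (0 in either library).

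**Figure D1:**
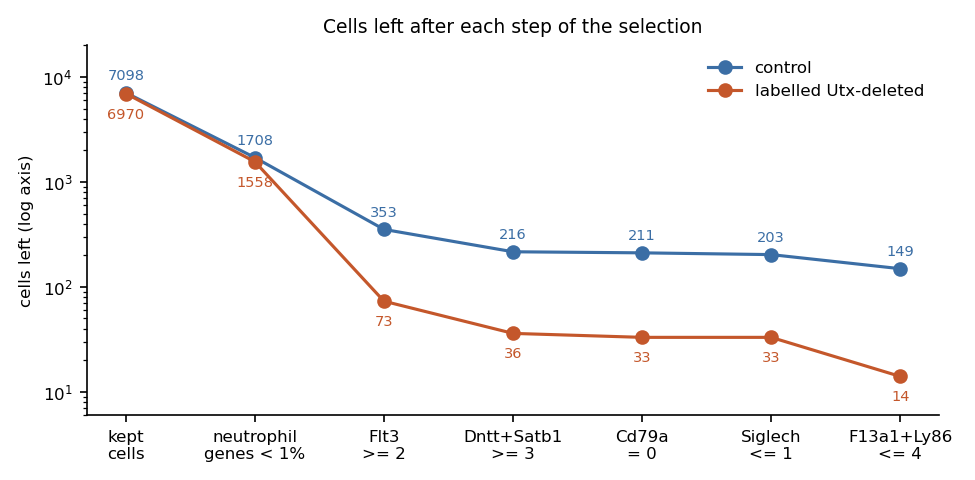
Cells left after each step of the rule, per library, on a log axis of cell number. In this order of steps the libraries start at 7098 and 6970 cells, first part at the Flt3 step (353 and 73 cells) and end at 149 and 14 members.

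The members were deeply sequenced cells of ordinary quality. Control members held 5462 to 80983 gene UMIs with a median of 26557, and Utx-deleted members 16915 to 49537 with a median of 29046. Their median numbers of detected genes were 5960 and 6064, and their median mitochondrial shares 3.15% and 3.11%. Summed over members this gives 4090666 control UMIs and 408109 Utx-deleted UMIs, so that a gene at the lower limit of 50 UMIs used below and at the same level in both libraries would have 4.54 UMIs in the Utx-deleted members. That limits the precision of every Utx-deleted level given here. Barcodes carrying both hashtags, 380 in the control and 699 in the Utx-deleted library, had been dropped as doublets, and 0 of them met the rest of the rule. No doublet caller was run, so doublets of cells with the same hashtag can remain. The libraries shared 17 barcodes, 0 of them members.

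Checked against its defining markers, the name fits only some of the cells. Satb1 reached 3 UMIs in 145 of 149 control and 14 of 14 Utx-deleted members, but Dntt was detected in only 65 control (43.6%) and 2 Utx-deleted members (14.3%). Most members also carried stem-cell transcripts: Hlf and Mecom together reached 2 UMIs in 131 of 149 control (87.9%) and 10 of 14 Utx-deleted members. Mpo, the myeloperoxidase of myeloid progenitors, reached 10 UMIs in 78 and 12 of them. Il7r, the interleukin-7 receptor of committed lymphoid progenitors, was present in only 4 control cells and 1 Utx-deleted cell, and the B-cell factor Ebf1 in 2 and 1. By the genes they express, the members are Flt3+ Satb1+ progenitors, most of them with stem-cell transcripts, of which a part expressed Dntt.

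Free RNA in droplets can give a few UMIs of a gene that a cell does not express, so detection was compared with neutrophil-rich cells (at least 20% neutrophil transcripts), after thinning every cell to 5000 UMIs. Before thinning, the neutrophil-rich cells had a median of 10234 UMIs in the control and 9703 in the Utx-deleted library. Flt3 was detected in 71.1% of thinned control members and 0.157% of neutrophil-rich cells, and Dntt in 27.5% and 0.246%. In the Utx-deleted library Flt3 was found in 64.3% of thinned members and 0.0409% of neutrophil-rich cells, and Dntt in 14.3% and 0.0205%. Flt3 and Dntt are genes of the rule, so their detection in members follows from the choice, and the neutrophil-rich shares give the level of free RNA of these genes in each library. Satb1 was found in 67.1% and 71.4% of members but also in 43.0% and 49.8% of neutrophil-rich cells, so low Satb1 counts are less selective. Ltb, the lymphotoxin β gene, and Notch1, the receptor that drives T-lineage choice, were found in 10.1% and 14.8% of thinned control members. Both shares lay under those of control neutrophil-rich cells, 24.0% and 35.4%. They lay above those of thinned control stem-like cells (Hlf and Mecom together at least 2 UMIs, no members), 5.40% and 6.41%. The neutrophil-rich shares therefore do not measure free RNA of Ltb and Notch1. The part of free RNA in the member counts, and any difference between the libraries, was not tested. Ighm was found in 20.8% of thinned control members, 18.9% of neutrophil-rich cells and 7.59% of stem-like cells. In the Utx-deleted library these shares were 14.3%, 14.4% and 5.73%. Unthinned, 31 of 149 control and 0 of 14 Utx-deleted members had an Ltb UMI, and 81 and 5 had a Notch1 UMI.

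Markers of other cell types were summed per cell as UMIs per 10000. Of 8 B-cell progenitor markers, 5 were detected in control and 3 in Utx-deleted members, with ranges of 0 to 3.52 and 0 to 2.02, and Pax5 and Cd79a were at 0 in both. Of 6 erythroid markers, 6 and 0 were detected, with a highest control value of 10.3. Of 6 neutrophil progenitor markers (Elane, Prtn3, Ctsg, Mpo, Ms4a3, Gfi1), all were detected in both, with medians of 14.0 and 28.5 and ranges of 0.300 to 163 and 0 to 120. Dendritic markers ranged up to 4.97 in control members and up to 174 in the Utx-deleted members, where a single cell gave the highest value. Siglech, Cd209d and Klk1 were at 0 in both. All 6 monocyte progenitor markers were detected in both, with ranges of 0 to 8.81 and 0 to 22.9 and medians of 0.685 and 0.437. Of 8 T or NK markers 5 and 3 were detected (0 to 6.01 and 0 to 2.40), of 6 megakaryocyte markers 4 and 3 (0 to 1.70 and 0 to 0.533), and of 5 basophil or mast cell markers 4 and 2 (0 to 159 and 0 to 7.03). The part these other programmes have in the differences below was not tested.

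Flt3, by which the cells were chosen, had 2 to 33 UMIs per cell in control members with a median of 5, and 2 to 16 with the same median in Utx-deleted members. Summed, it reached 272 CPM (UMIs of the gene per 1000000 gene UMIs) in the control and 225 CPM in the Utx-deleted members. Satb1, also a gene of the rule, had medians of 6 and 5 UMIs and sums of 293 and 274 CPM. The rule sets a lower limit on these levels, so they are not compared with the number of members. The summed level of Dntt, 174 and 159 CPM, came from 65 control and 2 Utx-deleted members.

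The 14 Utx-deleted members can be described singly. In 12 of them Dntt was at 0. Cell 9 (hashtag 2) held 54 Dntt, 16 Flt3 and 17 Satb1 UMIs with 10 of Il7r, 10 of Ebf1, 5 of Notch1 and 12 of Mpo. Cell 13 (hashtag 2) held 11 Dntt, 11 Flt3 and 28 Satb1 UMIs with 7 of Ighm, the µ heavy chain whose locus is transcribed early in lymphoid cells. These were the only Utx-deleted members with Dntt, and each was rich in it.

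The other 12 were mixed. Cell 12 (hashtag 2) was the most stem-like, with 39 Hlf and 94 Mecom UMIs and no Mpo (0 UMIs), and cell 3 (hashtag 1) held 12 Hlf and 40 Mecom UMIs. Cells 2 and 5 (both hashtag 1) were rich in myeloid transcripts, with 146 and 65 Elane UMIs and 177 and 81 Mpo UMIs, and only 2 Flt3 UMIs each. Cell 7 (hashtag 2) stood apart with 150 Cd74 UMIs, the MHC class II invariant chain, 16 of Flt3 and 0 of Mpo, Elane, Cd34, Hlf and Mecom. Every Cd74 UMI of the Utx-deleted members came from that cell.

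Dntt-positive members were the scarcer kind in the Utx-deleted library. They were 65 of 7098 control cells (0.916%) and 2 of 6970 Utx-deleted cells (0.0287%), 31.9-fold fewer (8.49 to 269). Members without a Dntt UMI were 84 (1.18%) and 12 (0.172%), 6.87-fold fewer (3.74 to 13.8). The intervals of both folds overlap, and the ratio between them was not tested. In hashtag 2 the folds were near each other, 17.5 for Dntt-positive members (35 and 2 cells) and 12.5 for those without Dntt. In hashtag 1 there were 30 control and 0 Utx-deleted Dntt-positive members (0 of 3256 cells, at most 0.0921% with 3 cells as the floor), and the members without Dntt were 4.10-fold fewer. Among low-neutrophil cells that were no members, 104 of 1559 control cells (6.67%, 5.48 to 8.03%) and 16 of 1544 Utx-deleted cells (1.04%, 0.593 to 1.68%) had at least 1 Dntt UMI. Most of these were B-lineage cells (Cd79a and Ebf1 each at least 1 UMI), 60 of the 104 and 13 of the 16. Outside the B lineage 44 of 1485 control cells (2.96%) and 3 of 1507 Utx-deleted cells (0.199%) remained.

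Neighbouring populations of the same low-neutrophil cells, none of them members, differed less in number. Stem-like cells (Hlf and Mecom together at least 2 UMIs) were 596 (8.40%) in the control and 262 (3.76%) in the Utx-deleted library, 2.23-fold fewer (1.93 to 2.59). These cells differed from the members in stem-cell and myeloid genes, and not in 1 direction for the former. In the control they held 116 CPM of Hlf and 311 of Mecom against 250 and 426 in members, and 2379 CPM of Elane and 2009 of Mpo against 259 and 878. Meis1 was at 538 CPM, against 500 in members, and Mecom was detected in 86.6% of them, against 82.6%. Their control Sca1 tag had a median of 10 UMIs, against 19, and their CD150 tag a median of 4, against 2, with means of 32.6 and 3.23. B-lineage cells were 74 (1.04%) and 37 (0.531%), 1.96-fold fewer (1.31 to 3.0), although their median depths differed, at 16103 and 5847 UMIs. The cells with Flt3 but neither Dntt nor Satb1 were too few to compare, 7 and 6. Members were 20% of members and stem-like cells together in the control (17.2 to 23.1%) and 5.07% in the Utx-deleted library (2.80 to 8.36%). Inside the stem-like cells, 110 of 596 control and 11 of 262 Utx-deleted cells had at least 2 Flt3 UMIs. Flt3 is a gene of the rule and members were taken out of the stem-like cells. This count is therefore a description and adds no support to the difference in members.

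**Figure D2:**
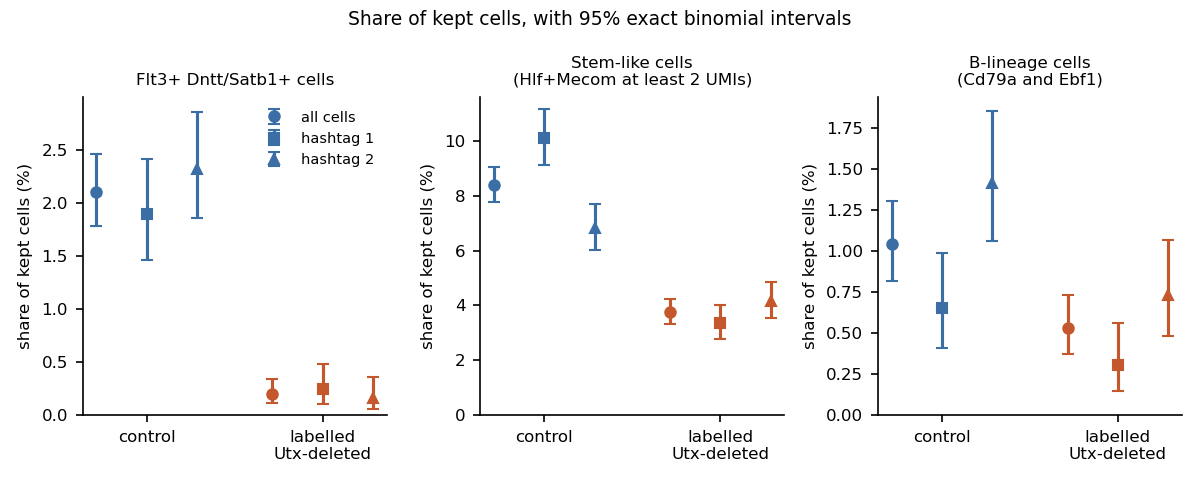
Share of kept cells in percent (linear axes from 0) for members, stem-like cells and B-lineage cells in each library, for all cells (circles), hashtag 1 (squares) and hashtag 2 (triangles), with exact 95% binomial intervals. Members stand at 2.10% and 0.201%, stem-like cells at 8.40% and 3.76% and B-lineage cells at 1.04% and 0.531%.

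The control members held enough cells to describe how Dntt-positive and Dntt-negative members differ inside 1 library. Dntt is a gene of the rule and the Dntt-negative cells had to reach 3 Satb1 UMIs without it, so this split is a description. Median depth was similar, 25331 UMIs in the 65 Dntt-positive and 27105 in the 84 Dntt-negative cells. Dntt-positive cells held a median of 3 Dntt UMIs and up to 71, and had more Flt3 (median 9 against 4) and more Satb1 (9 against 5). Stem-cell transcripts overlapped with Dntt: 55 members had both Dntt and at least 2 UMIs of Hlf and Mecom.

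Of 8379 genes, 44 were past 2-fold upwards and 86 downwards in the Dntt-positive control members. The lymphoid priming list leaned to the Dntt-positive cells, with 15 of 18 genes above 0 and a median log2 ratio of 0.38, against -0.004 for all genes. Without the 4 genes whose share in thinned control members was no larger than in neutrophil-rich cells (Ltb, Notch1, Ikzf1 and Ets1), 12 of 14 lay above 0, with a median of 0.35. Ighm was at 28.2 CPM in Dntt-negative and 128 CPM in Dntt-positive cells, 4.5-fold higher. It was at 45.3 CPM in control neutrophil-rich cells and 19.9 CPM in control stem-like cells. Mef2c, a factor that favours lymphoid over myeloid fate, was at 337 and 581 CPM (log2 ratio 0.78, 0.65 to 0.92), and Ikzf1, which encodes Ikaros, at 379 and 535 CPM (0.50). The leading genes were Cmah, with 1 UMI in Dntt-negative and 53 UMIs in Dntt-positive cells (45.4-fold, in 1 and 14 cells), Arpp21 (18.2-fold, 3 and 20 cells) and Airn (14.7-fold, 1 and 11 cells). Fgf13 was 5.99-fold, Il12a 3.65-fold and the B-cell surface receptor gene Cd180 3.08-fold higher. Ratios pointed the same way in both hashtag populations for each of these named genes.

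Myeloid and stem-cell lists leaned to the Dntt-negative cells. Of 22 myeloid genes 19 lay below 0, with a median of -0.66, and 5 were at least 2-fold lower. Elane, the neutrophil elastase, was at 354 and 132 CPM and Prtn3, another granule protease, at 1066 and 508 CPM. Of 17 stem-cell genes 13 lay below 0, with a median of -0.27. Gata2, a transcription factor of stem cells and progenitors, was at 56.8 and 25.1 CPM. Dach1, a transcription factor gene, fell from 958 to 306 CPM, 3.13-fold, in 81 and 40 cells. Ccr2, the chemokine receptor of monocytes, was 7.11-fold lower and Apoe 4.65-fold lower in Dntt-positive cells. Of 4 basophil or mast cell genes all lay below 0 in the Dntt-positive cells, but all UMIs of Prss34 and Ms4a2 on this list came from 2 control cells.

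The surface tags followed the same split. The CD135 tag, which binds the Flt3 protein, had a median of 6 UMIs in Dntt-positive and 2 in Dntt-negative control members, with means of 7.65 and 3.44. CD16/32, the Fcγ receptors of myeloid progenitors, had medians of 47 and 81. CD41, the integrin of megakaryocyte-biased cells, had 5 and 9, and CD117 (Kit) had 145 and 227. The CD34 tag hardly differed, with medians of 63 and 62. Ranges overlapped for every tag.

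**Figure D3:**
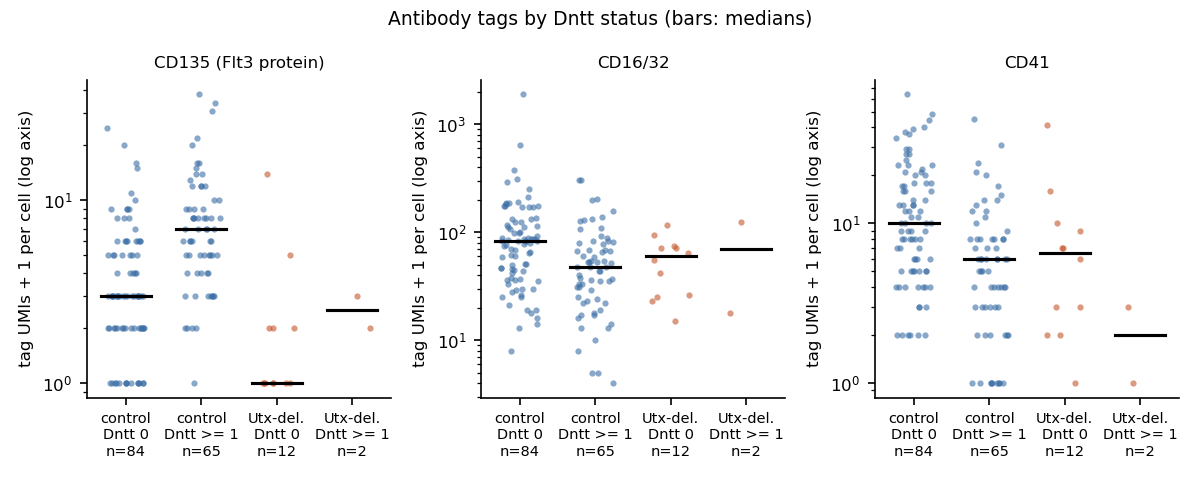
Tag UMIs plus 1 per member cell (log axis) for CD135, CD16/32 and CD41, in Dntt-negative (Dntt 0) and Dntt-positive members of each library; each point is a cell and each bar a median. In the control the Dntt-positive cells have the higher CD135 median (6 against 2 UMIs) and the lower CD16/32 and CD41 medians, and ranges overlap throughout.

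Between the libraries, CD135 was also lower. Control members held 0 to 37 CD135 UMIs with a median of 4, and Utx-deleted members 0 to 13 with a median of 0.5. The share of CD135 among all 13 surface tags had a log2 ratio, Utx-deleted over control, of -1.37 in members. The member ratio rests on 23 Utx-deleted UMIs, 13 of them from cell 7. It was -2.42 without that cell, -3.20 in hashtag 1 and -0.67 in hashtag 2. The ratio was -1.06 in the other low-neutrophil cells and -1.14 in neutrophil-rich cells, whose mean counts were 0.921 and 0.422 and in which Flt3 transcripts were rare. The member values without cell 7 and by hashtag lie on both sides of these ratios, and the part of a lower CD135 signal of the whole library was not tested.

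Other tags of early progenitors were compared in the same way. Sca1, encoded by Ly6a and used to gate stem cells and multipotent progenitors, had medians of 19 and 5 UMIs and a log2 share ratio of -0.59. The Sca1 ratio was -0.46 in other low-neutrophil cells, which include other progenitors, and -0.73 in neutrophil-rich cells. Of the 353 Utx-deleted Sca1 UMIs, 281 came from cell 12, the most stem-like member. The Sca1 ratio was -2.82 without that cell, -2.02 in hashtag 1 and -0.20 in hashtag 2. CD34 went the other way, with medians of 62 and 91.5 and a ratio of 0.72 in members and 0.76 in other low-neutrophil cells, but -0.47 in neutrophil-rich cells. CD48, carried by multipotent progenitors and not by the most primitive stem cells, had medians of 998 and 729.5 and a ratio of -0.07. The ratio of CD11b, the myeloid integrin, was -1.29 in members and -0.42 in other low-neutrophil cells. CD150 and CD201, both marks of primitive stem cells, had medians of only 2 and 0 and of 2 and 0.5 UMIs. Their ratios in members, -2.19 and -1.89, were the lowest of the 13 tags but rest on 8 and 11 Utx-deleted UMIs. The CD150 ratio was -1.41 in other low-neutrophil cells and -1.35 in neutrophil-rich cells. For CD201 these were -0.24 and -0.59. CD127, the Il7r protein, had means of 4.54 and 2 UMIs in members and of 5.21 and 3.45 in neutrophil-rich cells, so it lay at background. Of the 13 tags 9 were lower in Utx-deleted members by share, 8 in hashtag 1 alone and 10 in hashtag 2 alone. The same count was 8 of 13 in other low-neutrophil cells and 12 of 13 in neutrophil-rich cells, so it is not particular to the members. As centred log-ratios 6 tags were lower in members, and as unscaled UMIs 11. The values by hashtag and without the cell highest in a tag were computed after seeing the data.

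Across genes, most transcripts of the members were at like levels in both libraries. Of 8633 genes with at least 50 UMIs over the members, leaving out the genes of the rule, 742 (8.59%) were past 2-fold, 149 (1.73%) higher and 593 (6.87%) lower in the Utx-deleted members. The median log2 ratio over all of them was -0.06. Control members of hashtag 2 against hashtag 1 gave 96 of 8394 genes past 2-fold (1.14%), and Utx-deleted members, with 8 and 6 cells, gave 99 of 1510 (6.56%). These splits differ from the comparison of libraries in depth and in the genes that reach 50 UMIs. Between libraries, a gene at that limit and at the same level in both has an expected 4.54 Utx-deleted UMIs. The 3 shares therefore do not measure an excess between libraries over the spread inside them. Of the 593 lower genes, 331 (55.8%) had 3 or fewer UMIs in the Utx-deleted members and 39 had 0. No higher gene had 3 or fewer control UMIs (0 of 149). The lower genes therefore rest on fewer Utx-deleted UMIs, and the part of this in their larger number was not tested.

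Il1r1, the signalling receptor for interleukin-1, led the lower genes that did not rest on a single cell. It lies at chr1:40225080-40317257 on the plus strand (GRCm38) and had 185 UMIs in 77 of 149 control members, 55.8 CPM in hashtag 1 and 36.5 CPM in hashtag 2, and 0 UMIs in the 14 Utx-deleted members. At the control level 18.5 UMIs would stand there. Taking 3 UMIs as the floor for the library, it was at least 6.15-fold lower. The exact 95% interval of its log2 ratio, which is two-sided, ends at -2.31, a smaller fold than that floor gives, as it does for the other genes at 0 UMIs below. In stem-like cells its log2 ratio was -1.58.

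Itgal, the αL chain of the LFA-1 integrin on leukocytes, lies at chr7:127296260-127335138 on the plus strand. It had 155 UMIs in 87 control members, 36.8 and 38.8 CPM in the hashtag populations, and 0 in the Utx-deleted members, at least 5.15-fold lower. Stem-like cells gave a log2 ratio of -3.44 for it. Lbp, the lipopolysaccharide-binding protein, had 124 and 0 UMIs (at least 4.12-fold lower, -1.75 in stem-like cells). Tnip3, a regulator of NF-κB signalling, had 92 and 0 (at least 3.06-fold, -4.92 in stem-like cells). Ggt5, a γ-glutamyltransferase family member, had 82 and 0 (at least 2.73-fold, -4.08), and Epb41l3, a membrane skeleton protein, had 81 and 0 (at least 2.69-fold, -3.57). These 6 genes were also low in stem-like cells of the Utx-deleted library.

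For other genes at 0 the stem-like cells gave smaller differences. Mei4, Zfp532, Spata13 and Dglucy had 97, 97, 93 and 75 control UMIs, and log2 ratios of -0.90, -0.57, -0.88 and -0.79 in stem-like cells. Sox5 and Gm17590 had 84 and 81 control UMIs and lay near 0 in stem-like cells, at -0.05 and 0.20. Of all 593 lower genes, 92 (15.5%) were also at least 2-fold lower in stem-like cells, where 332 of 11633 genes (2.85%) were. The libraries are the same in both comparisons, so this is no independent check.

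Mt1, a metallothionein that binds zinc and copper, had the highest ratio among the genes that did not rest on a single cell. It had 35 UMIs in 19 control members and 32 UMIs in 9 Utx-deleted members, 8.56 and 78.4 CPM, a log2 ratio of 3.16 (2.46 to 3.93). Its CPM was 12.5 and 5.35 in the control hashtag populations and 114 and 37.1 in the Utx-deleted ones. Populations that do not overlap were a condition for naming the genes with the highest and lowest ratios. Stem-like cells gave 1.44. Cox6b2, a cytochrome c oxidase subunit, was found in 83 of 149 control and 14 of 14 Utx-deleted members, at 37.9 and 100.5 CPM (1.40, 0.87 to 1.91; 1.10 in stem-like cells).

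Among the 12 genes with the highest ratios were 3 H2A histone genes. Hist1h2ap was at 218 and 723 CPM (log2 ratio 1.73), Hist1h2ae at 138 and 387 CPM (1.49) and Hist1h2an at 28.4 and 78.4 CPM (1.46). These genes are near-identical copies whose reads a counter can split, so the single values are uncertain. They were detected in 8, 7 and 7 of 14 Utx-deleted members, where the highest cell gave 24.1%, 23.4% and 25% of the UMIs. The DNA replication list (G1/S) had 0 of 16 genes past 2-fold and a median of -0.14, with Mcm5 at -0.77. The G2/M list had a median of 0.20, with Top2a at 588 and 664 CPM.

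The remaining genes with the highest ratios were 4930520O04Rik (29.1 and 88.2 CPM, 1.59), 2610035D17Rik (23.2 and 66.2 CPM, 1.5; 1.95 in stem-like cells), Pofut2 (10.8 and 29.4 CPM), A430033K04Rik, Adal and Slc25a32 (22.2 and 56.4 CPM, 1.33). Bex1, a small adaptor protein gene, was at 11 and 29.4 CPM (1.40; 1.52 in stem-like cells). Of 148 higher genes measured in stem-like cells, 13 (8.78%) were at least 2-fold higher there too, against 1.64% of all genes.

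**Figure D4:**
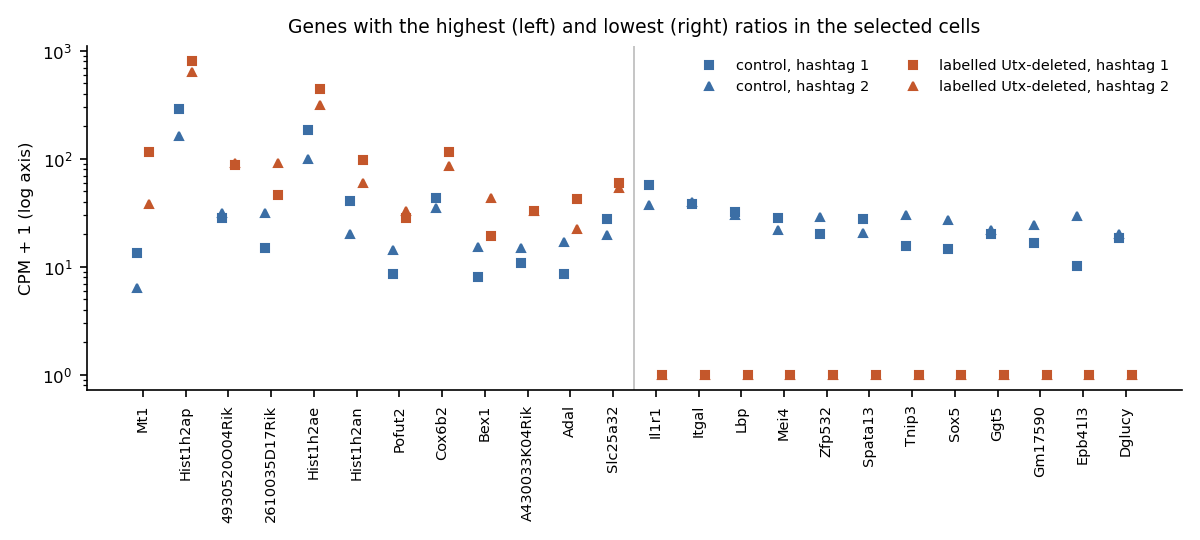
CPM plus 1 (log axis) of the 12 genes with the highest ratios (left) and the 12 with the lowest (right) in members, for hashtag 1 (squares) and hashtag 2 (triangles) of each library. On the left both Utx-deleted populations lie above both control ones, as the choice of these genes requires; on the right every Utx-deleted point lies at 0 CPM, with Il1r1 and Itgal among the highest in the control.

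Genes that set the members apart from other low-neutrophil cells, in both libraries, were also compared. In the control the members were 11.3-fold richer in Wfdc17, 8.58-fold in the chemokine gene Ccl4, 7.49-fold in Msrb3, 6.01-fold in the lipoprotein receptor gene Vldlr and 5.03-fold in Hlf. Selection on other genes of the same cells shapes this list, so it is given as a description. Wfdc17 itself had 183 UMIs in 66 control members and 1 UMI in 1 Utx-deleted member. These genes were ranked by their excess in control members, so a lower level in the Utx-deleted members is favoured by the choice and no fold is given. Hmga2, a chromatin protein of fetal and self-renewing stem cells, went the other way at 171 and 444 CPM (700 and 181 UMIs, in 100 and 13 cells). A single Utx-deleted cell gave 54.7% of those UMIs, and hashtag 1 alone was at 141 and 137 CPM.

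Gene lists are given with genes of at least 20 UMIs, of which there were 10396 with a median of -0.07, with 347 at least 2-fold higher and 1084 lower. The lymphoid priming list had a median near that of all genes, -0.11, with 8 of 20 genes above 0, 3 at least 2-fold higher and 2 lower. Those counts include Ltb (64 and 0 UMIs) among the lower and Notch1 among those above 0, both detected more often in neutrophil-rich cells than in members. In stem-like cells Ltb was at 8.97 and 0.589 CPM and Notch1 at 17.6 and 11.3 CPM. Without Ltb, Notch1, Ikzf1 and Ets1, as in the split by Dntt, 7 of 16 lay above 0, 3 were higher and 1 lower, with the same median of -0.11. The list leans on cell 9. Without that cell 3 of the 20 genes lay above 0, 0 were at least 2-fold higher and 7 lower, with a median of -0.41 (-0.31 over the genes that still reach 20 UMIs). With all members the median was 0.24 in hashtag 2 alone and -0.40 in hashtag 1, so its sign is not settled. Ikzf1 was at 446 and 225 CPM (1823 and 92 UMIs; log2 ratio -0.98, -1.30 to -0.68), just inside the 2-fold limit (-1.03 without cell 9). Its hashtag populations, 415 and 471 CPM in the control against 178 and 281 CPM, did not overlap, while stem-like cells gave -0.19. It was found in 84.6% of thinned control members and 91.0% of neutrophil-rich cells, and the part of free RNA in its level was not tested. Mef2c (441 and 409 CPM), Foxp1 (1114 and 1171 CPM) and Bcl11a (278 and 257 CPM), all transcription factors of the early B lineage, were at like levels. Sox4, needed for early B-cell development, was at 249 and 179 CPM (-0.48).

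Several genes of this list past 2-fold rested on few cells or UMIs. Il7r rose from 2.44 to 24.5 CPM, but all 10 Utx-deleted UMIs came from cell 9. Cnn3 rose from 18.1 to 39.2 CPM (16 UMIs in 4 cells), but was at 8.37 CPM without cell 9, which gave 81.2% of them. Rag2, of the V(D)J recombinase, had 17 UMIs in 12 control members and 4 UMIs in 2 Utx-deleted members, 3 of them in cell 9. Lax1, an adaptor of lymphocyte signalling, had 50 UMIs in 36 control members and 1 in the Utx-deleted members, a log2 ratio of -2.22 with an interval from -7.65 to 0.23. Ighm lay inside the 2-fold limit at 70.9 and 44.1 CPM, and was at 4.56 and 90.04 CPM in the Utx-deleted hashtag populations, which enclose the control values of 79.1 and 64.2 CPM. With the Utx-deleted populations on either side of the control values, no difference in Ighm is read.

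B-lineage genes were barely measured in members. Of 18 genes, 6 reached 20 UMIs, 5 of these lay below 0 and the median was -0.80. Cd24a, which neutrophil-rich cells also hold (81.3% of them against 24.2% of thinned control members), was at 73.1 and 41.7 CPM (-0.81), Cd72 at 38.4 and 22.1 CPM (-0.79), and Cd79b, the partner of Cd79a in the B-cell receptor, at 20.05 and 9.80 CPM (82 and 4 UMIs). Ebf1 had 10 UMIs in 2 control cells and 10 UMIs in cell 9. Pax5 was at 0 in both libraries. The median was -1.47 in members with at least 5 UMIs of Dntt and Satb1, and -0.50 as a mean over cells.

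The T or NK list had 4 measured genes with a median of -1.60, 3 of them at least 2-fold lower. Nkg7, a cytotoxic granule protein gene, fell from 170 to 66.2 CPM (697 and 27 UMIs; -1.36, -1.98 to -0.81), with 171 and 170 CPM in control hashtags and 100 and 26.5 CPM in Utx-deleted ones. Other low-neutrophil cells held more Nkg7 than members, 379 CPM in the control and 290 CPM in the Utx-deleted library. Cd3e, Bcl11b and Il2rb had 0 UMIs in members of both libraries, so the list median is not read as T or NK priming. Gata3 had 47 and 1 UMIs and Lat 38 and 1. Id2, an inhibitor of E proteins, rose from 4.40 to 63.7 CPM, but 88.5% of its Utx-deleted UMIs came from cell 7, without which it was at 7.71 CPM (0.78).

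Of 17 stem-cell genes 15 lay below 0, with a median of -0.40, and 5 were at least 2-fold lower. The median was -0.09 in members with at least 3 Flt3 UMIs and -0.27 without the Utx-deleted cell that held Ebf1. Ifitm1, an interferon-inducible membrane protein gene, fell from 220 to 44.1 CPM (901 and 18 UMIs; -2.31, -3.08 to -1.65). Its control hashtags were at 218 and 222 CPM, its Utx-deleted ones at 22.8 and 68.9 CPM, and stem-like cells gave -1.37. Ifitm3 fell from 214 to 100.5 CPM (-1.09, -1.58 to -0.64). Ly6a, the gene of Sca1, had 91 UMIs in 56 control members and 1 UMI in the Utx-deleted members (22.2 and 2.45 CPM; -3.07, -8.50 to -0.67). Procr and Esam had 38 and 25 control UMIs and 1 UMI each in the Utx-deleted members.

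Among transcription factors of the stem-cell list, Mecom was at 426 and 404 CPM (-0.08) and Hlf at 250 and 211 CPM (-0.25). Both Utx-deleted levels rest on cell 12, which gave 57% of the Mecom and 45.3% of the Hlf UMIs. Without it Mecom was at 188 CPM (-1.18) and Hlf at 124 CPM (-1.005), both past the 2-fold limit, and the median of the stem-cell list was -0.86. Leaving out the cell with the most UMIs of a gene favours a lower level by construction, and it was done for list genes after seeing the data. Hlf came from 127 of 149 control and 7 of 14 Utx-deleted members. Meis1 was at 500 and 377 CPM (-0.41). The Hox list had a median of -0.37, with Hoxa9 at 65.8 and 61.3 CPM and Hoxb2 at 43 and 0 UMIs.

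Of 22 myeloid genes 13 lay above 0, with a median of 0.15 that was -0.04 without cell 7 and -0.55 in hashtag 2 alone. Single genes moved in different directions. Mpo was at 878 and 1473 CPM (0.75, 0.62 to 0.87). Its hashtag populations were at 1203 and 611 CPM in the control and 2161 and 673 CPM in the Utx-deleted library, and these overlap. Elane rose from 259 to 551 CPM (1.09), yet was at 1003 CPM in Utx-deleted hashtag 1 and 26.5 CPM in hashtag 2, and 64.9% of its UMIs came from cell 2, without which it was at 220 CPM (-0.24). Cst3, cystatin C, rose from 278 to 642 CPM, with 65.3% from cell 7, without which it was at 234 CPM (-0.25).

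Of the same 22 genes, Fcer1g, Tyrobp and Csf3r fell. Fcer1g and Tyrobp, adaptors of Fc and other activating receptors, went from 86.5 to 34.3 CPM (-1.33, -2.22 to -0.57) and from 95.8 to 39.2 CPM (-1.28, -2.11 to -0.57). Csf3r, the receptor for G-CSF, went from 113 to 56.4 CPM (-1.01, -1.68 to -0.41). In stem-like cells Fcer1g and Tyrobp gave -1.39 and -1.56. Both control hashtag populations lay above both Utx-deleted ones for Fcer1g and Tyrobp.

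Dendritic and MHC class II genes had a median of 1.95 over 10 genes, 5 of them at least 2-fold higher, and all 5 calls rest on cell 7. Without it 0 of the 10 were at least 2-fold higher, 3 were at 0 UMIs in the Utx-deleted members, and the median was -0.56. That cell gave all 150 Cd74 UMIs, and a single cell gave 100% of H2-Aa and 82.1% of H2-Ab1 UMIs. In stem-like cells the list's median was 0.06. Outside MHC class II, Tcf4, the E protein of plasmacytoid dendritic cells, was at 314 and 331 CPM, and Bst2 at 144 and 83.3 CPM (-0.79).

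Of 12 interferon-stimulated genes 9 lay below 0, with a median of -0.76, and 4 were at least 2-fold lower, beside -0.56 in stem-like cells. Oasl2 had 92 and 2 UMIs (-2.15, -5.27 to -0.30) and Oas1a 53 and 2. Ifi203 was at 186 and 93.1 CPM (-0.99). Ifit2 and Stat2 lay above 0, at 0.47 and 0.85, so the list did not move as a whole.

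Of 18 receptor genes 13 lay below 0 with a median of -0.17. Kit was at 279 and 238 CPM, Cd34 at 405 and 368 CPM, and Cd48 at 271 and 299 CPM. Cxcr4, the receptor that holds progenitors in the marrow niche, was at 70.4 and 41.7 CPM (-0.75, -1.56 to -0.05). Ccr2 rose from 13.7 to 90.7 CPM (2.71, 2.09 to 3.35), with 67.6% of its Utx-deleted UMIs from cell 7, without which it was at 30.8 CPM (1.16).

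Car2, a carbonic anhydrase of erythroid and early progenitors, fell from 158 to 49.0 CPM (-1.68, -2.41 to -1.05). Of 7 genes of the megakaryocyte and erythroid list 3 were at least 2-fold lower and 1 higher. The latter was Gfi1b, at 9.29 and 22.05 CPM on 9 Utx-deleted UMIs. Basophil and mast cell genes were uneven in the control: all 514 Prss34 UMIs and all 44 Ms4a2 UMIs came from 2 control cells, and neither gene was found in Utx-deleted members. That list's median, -3.52 over 4 genes, is -0.98 when genes at 0 are set at their bound. Neutrophil genes outside the rule were level, with a median of -0.03 over 7 genes, and the 6 granule genes of the rule made up 0.111% and 0.133% of members' UMIs. Among immediate early genes Jun had 128 and 3 UMIs (-2.06, -4.39 to -0.51), while the list's median was -0.06.

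Kdm6a, which encodes Utx, had 712 UMIs in 143 of 149 control members and 63 UMIs in 13 of 14 Utx-deleted members, 174 and 154 CPM (-0.17, -0.57 to 0.20). Reads counted over the whole gene from 3′ libraries do not show whether an exon was removed, so this neither checks the label nor contradicts it. Kmt2c and Kmt2d, which encode MLL3 and MLL4, were at 203 and 191 CPM (-0.08) and 38.6 and 39.2 CPM (0.02), and Kdm6b, the related demethylase, at 17.6 and 19.6 CPM (0.15). No gene of this list passed 2-fold (0 of 10). Of 10 genes of Polycomb repressive complex 2, the H3K27 methyltransferase, 8 lay above 0 with a median of 0.18 and 1 was past 2-fold, Phf19 with 23 and 5 UMIs (1.09), the latter in 3 cells. The others included Ezh2 at 320 and 341 CPM and Mtf2 at 217 and 289 CPM (0.41, 0.13 to 0.69).

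Genes named in an earlier look at the stem-cell-like cells of these libraries were also read in the members, which is no independent support. Of 8 measured, 5 were at least 2-fold lower and 2 higher. Eya2, a transcriptional co-activator, had 129 UMIs in 56 control members and 1 in the Utx-deleted members (-3.57, -9.00 to -1.18; -4.19 in stem-like cells). 3830403N18Rik had 82 and 0 UMIs, at least 2.73-fold lower, but its control UMIs all lay in hashtag 2. Slc16a11, a monocarboxylate transporter family gene, had 20 and 12 UMIs (2.54, 1.42 to 3.69; 2.88 in stem-like cells).

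**Figure D5:**
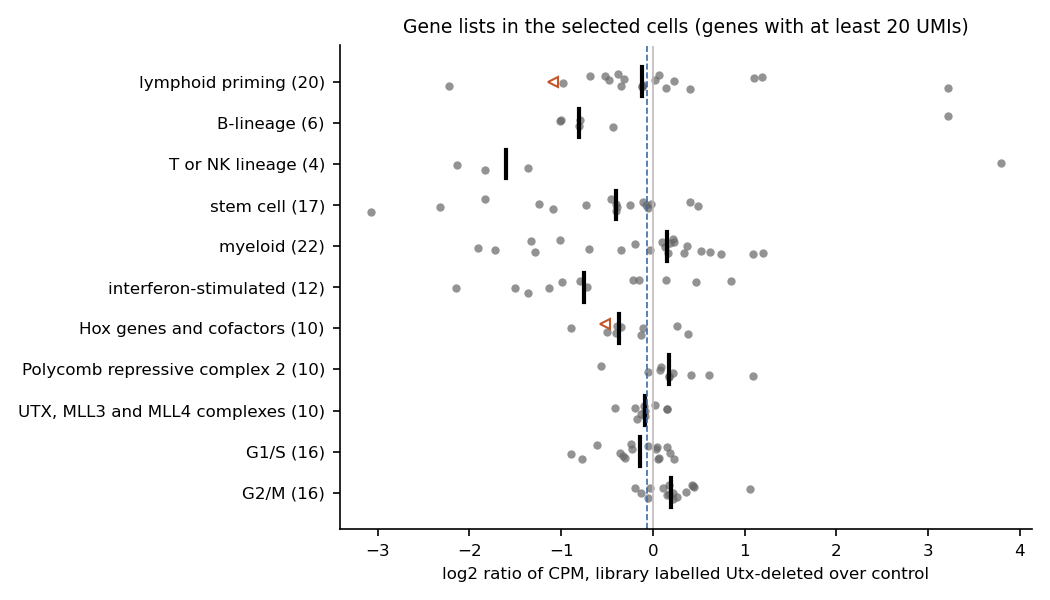
Log2 ratio of CPM, Utx-deleted over control, for genes of 11 lists with at least 20 UMIs over the members (number in parentheses); each point is a gene, open triangles are genes at 0 UMIs in Utx-deleted members drawn at their bound, black bars are list medians and the dashed line is the median of all genes. The stem-cell genes lie mostly left of the line (median -0.40), the lymphoid priming genes around it (-0.11).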

How the data were processed

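Gene and antibody-tag UMIs of 1 control and 1 Utx-deleted library were read as the count matrices the authors deposited, unnormalised whole-number counts over 32285 genes, 13 surface tags and 2 hashtags. Per the submitters' processing notes they were made with Cell Ranger 7.1.0 on mm10. Kept barcodes had at least 500 genes and under 10% mitochondrial UMIs, and those with both hashtags at 100 UMIs or more and within 5-fold were dropped. A cell belongs to a hashtag at 100 UMIs and over 5 times the other. UMIs were summed over members, with log2 ratios of CPM after a prior of 0.5 UMI, proportional to library totals, and exact Poisson (ratios) or Clopper-Pearson (shares) intervals. UMIs were not tested between groups, since each has 1 library.

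The members and gene lists were chosen with earlier results of these data known. Named genes are those of the 18 lists, the 12 highest and 12 lowest past 2-fold with hashtag populations apart and no cell giving over 25% of the UMIs in the higher library, the 15 that most set control members apart from other low-neutrophil cells, and Kdm6a, Kmt2c, Kmt2d and Kdm6b. X-inactivation and Y-linked genes were left out. In the split by Dntt the 12 highest and 12 lowest genes were ranked, and those named are among them or the lists. Python 3.11.15, numpy 2.4.6, scipy 1.17.1, pandas 2.3.3 and matplotlib 3.10.9 were used, with edgeR 4.0.16 only for a TMM scaling alternative. The computation was tested on simulated data. Thinning, other limits of the rule, other UMI minimums and single-hashtag values were the alternatives. Some genes of the lists are not reported here by name.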

Additional observations from a re-analysis of the deposited data

How the results depend on the processing

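The share of members, as Utx-deleted over control, was 0.09569, and 0.2263 without members with at least 2 Hlf and Mecom UMIs, 0.03133 with Dntt-positive members only, and 0.06632 to 0.1295 in the other alternatives. Genes past 2-fold (742; 149 higher, 593 lower) became 1431 (347, 1084) at a minimum of 20 UMIs, 130 (18, 112) at 200 UMIs, 2007 (629, 1378) at 1.5-fold, 403 (68, 335) after thinning to 5000 UMIs and 119 (37, 82) in members without Hlf and Mecom, and hashtag 1 gave 93 higher. Lower genes outnumbered higher ones in each of these. The number of genes that entered changes with the setting: 8633 in the main one, 10396 at a minimum of 20 UMIs and 6414 in hashtag 1. The counts are therefore not shares and cannot be compared with each other as such. The lymphoid priming median (-0.1134) turned to 0.244 in hashtag 2. The myeloid median (0.1521) turned to -0.5462 in hashtag 2, -0.05574 without Hlf and Mecom, -0.4026 with at least 3 Flt3 UMIs and -0.04351 without the Cd74-rich cell. The B-lineage median (-0.8006) was -0.5005 as a mean over cells, -0.6854 in hashtag 1, -0.9147 under 0.2% neutrophil transcripts, -1.469 with at least 5 Dntt and Satb1 UMIs, -0.5809 with at least 3 Flt3 UMIs and -0.7092 without the Ebf1-positive cell, and it gave no value at 200 UMIs, after thinning or without Hlf and Mecom. The stem-cell median (-0.4011) was -0.5836 as a mean over cells, -0.6681 after thinning, -0.6438 with at least 5 Dntt and Satb1 UMIs, -0.09136 with at least 3 Flt3 UMIs -0.2681 without the Ebf1-positive cell and -0.859 without the Mecom-rich cell. Tags that changed sign were CD48 (0.1692), CD41 (0.198) and CD16/32 (0.387) as centred log-ratios, and B220 (-0.09016) and Gr1 (-0.01321) as unscaled UMIs, CD16/32 (0.1022) in hashtag 1, and CD117 (-0.1576), CD48 (0.1168) and Gr1 (-0.2889) in hashtag 2. The alternatives without the Cd74-rich, Ebf1-positive or Mecom-rich cell, and the tags by hashtag or without their highest Utx-deleted cell, were chosen after seeing the data. The cause of each move was not tested. Depth limits all Utx-deleted levels: 14 cells hold 408109 UMIs, against 4090666 in the control.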
